A study of Mus musculus with 6 samples.

Results

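The genes described here are 9 cytokine and cytokine receptor genes of Th17 cells: the cytokines Il17a, Il17f, Il21, Il22, Il10 and Il24, and the receptors Il23r, Il1r1 and Il21r. They were taken by name from a table of 31017 genes, in which all 9 were found, and all 9 passed the filter on low counts with 14268 genes in total. RNA was sequenced from mouse Th17 cells differentiated in culture, in 3 control libraries with the genotype label WT and 3 libraries labelled KO, which the series describes as RTF1-deficient. How Rtf1 was inactivated, in which cells, the age of the mice and the culture conditions are not given in the sources used here, and nothing states that the 3 libraries of a group came from separate mice or cultures, so p-values measure only the spread between these libraries. The series title places the comparison in the study of RTF1, histone H2B monoubiquitination and Th17 differentiation.

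Th17 cells are CD4 helper T cells that secrete IL-17A and IL-17F, which act on epithelial and stromal cells and call in neutrophils. IL-21 is made by the same cells and acts back on them through its receptor IL-21R and the common gamma chain. IL-22 and IL-24 belong to the IL-10 family, IL-22 supporting epithelial barriers and IL-10 restraining inflammation. IL-23, read by IL-23R with IL-12Rβ1, maintains and matures Th17 cells, and IL-1 signals through IL-1R1 and its accessory protein. RTF1 is an elongation factor that works with the PAF1 complex on RNA polymerase II and promotes ubiquitination of histone H2B.

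Total counts per library were 16489813 to 51271226. Values are CPM, counts scaled to a common library size with TMM factors, and the values of a group are given in the order of its replicates 1, 2 and 3. A dependence on single libraries was followed by leave-one-out fits, each without 1 of the 6 libraries. The groups were compared gene by gene, and a gene was called where edgeR's quasi-likelihood test over all 14268 tested genes gave an adjusted p under 0.05. Rtf1 itself held 94.0, 91.2 and 88.3 CPM in the control libraries and 45.3, 30.4 and 26.2 CPM in the KO libraries (edgeR log2 fold change −1.42 ± 0.191 SE, adjusted p = 7.6e-04), so the KO libraries kept 37.2% of the control level and all lay below it. Defining T cell genes were present in both groups, with Cd4 at 443, 477 and 539 CPM in control and 254, 218 and 290.3 CPM in KO (edgeR −0.94, adjusted p = 0.00132). Of 10 T helper identity genes 2 were called higher (Cd3e and Cd3g) and 3 lower (Cd4, Trbc1 and Ccr6), against 23.2% and 22.9% of all tested genes. The summed CPM of the 10 was 1845 to 2280.2 in control and 1638 to 1972 in KO. Gamma delta T cells and natural killer cells can also make these cytokines. Summed CPM of 7 gamma delta T cell markers was 2.92 to 5.18 in control and 5.13 to 6.49 in KO, with none of the 4 tested genes called, and of 6 CD8 and natural killer cell markers 7.60 to 11.3 and 7.13 to 12.8, with Klrb1c and Ncr1 at 0 in every library and Eomes the 1 gene called (higher). Summed CPM was 1.24 to 3.09 and 1.74 to 2.62 for 5 B cell markers, 0.784 to 0.851 and 2.32 to 4.37 for 7 myeloid markers, 0.0206 to 0.547 and 1.71 to 3.56 for 2 markers of innate-like T cells (Zbtb16 and Slc4a10), 1.14 to 2.86 and 0.935 to 2.03 for 3 erythroid markers, and 0.790 to 1.33 and 0.214 to 0.835 for 4 fibroblast markers. Of these lists 1 of 2 tested B cell genes and 1 of 2 tested fibroblast genes were called lower, 1 of 2 tested myeloid genes and Zbtb16 higher. The part of such cells in the results below was not tested. Replicate 3 of both groups carried counts of Y-linked genes and the others almost none.

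In the GENCODE M21 annotation of GRCm38, the build the submitters name as mm10, Il17a (chr1:20730905-20734496, plus strand) and Il17f (chr1:20777146-20790617, minus strand) are neighbours on chromosome 1, 42.6 kb apart with no protein-coding gene between them. Il24 (chr1:130882074-130887454, minus strand) and Il10 (chr1:131019845-131024974, plus strand) lie 132 kb apart on the same chromosome, as does Il1r1 (chr1:40225080-40317257, plus strand). Il21 is at chr3:37222759-37232636 (minus strand), Il22 at chr10:118204942-118210047 (plus strand), Il23r at chr6:67422932-67491855 (minus strand) and Il21r at chr7:125603429-125633570 (plus strand). RefSeq promoters (GRCm38.p6) were matched for 7 of the 9 members. The 250 bases before the start of Il17a, Il17f, Il21 and Il23r, the lower members with an entry, and of Il21r, which was not called, are printed 5′ to 3′ on the strand of the gene. Capitals mark every match on either strand to the AP-1 motif TGANTCA, the STAT motif TTCNNNGAA or the nuclear receptor half-site AGGTCA, which did not overlap one another.
Il17a (chr1:20730655-20730904, strand plus): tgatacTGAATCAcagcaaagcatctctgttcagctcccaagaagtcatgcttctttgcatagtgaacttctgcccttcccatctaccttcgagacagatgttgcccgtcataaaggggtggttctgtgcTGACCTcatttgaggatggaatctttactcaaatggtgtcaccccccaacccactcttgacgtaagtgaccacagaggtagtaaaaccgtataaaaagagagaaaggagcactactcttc
Il17f (chr1:20784271-20784520, strand minus): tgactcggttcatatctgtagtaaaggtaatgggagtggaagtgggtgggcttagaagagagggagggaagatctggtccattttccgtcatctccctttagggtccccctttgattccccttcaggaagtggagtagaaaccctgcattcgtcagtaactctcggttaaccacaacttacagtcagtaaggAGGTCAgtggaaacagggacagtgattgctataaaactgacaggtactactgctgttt
Il21 (chr3:37232637-37232886, strand minus): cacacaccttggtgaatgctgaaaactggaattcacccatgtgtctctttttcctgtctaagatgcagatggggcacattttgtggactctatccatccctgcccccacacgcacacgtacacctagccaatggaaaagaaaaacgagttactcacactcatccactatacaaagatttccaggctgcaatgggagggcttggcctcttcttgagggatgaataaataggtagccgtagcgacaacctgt
Il23r (chr6:67491856-67492105, strand minus): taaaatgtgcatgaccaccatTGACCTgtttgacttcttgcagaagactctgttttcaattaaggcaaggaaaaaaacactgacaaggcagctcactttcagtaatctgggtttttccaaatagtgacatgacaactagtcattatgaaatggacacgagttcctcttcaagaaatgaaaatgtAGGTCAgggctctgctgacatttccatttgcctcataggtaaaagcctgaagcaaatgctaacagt
Il21r (chr7:125603179-125603428, strand plus): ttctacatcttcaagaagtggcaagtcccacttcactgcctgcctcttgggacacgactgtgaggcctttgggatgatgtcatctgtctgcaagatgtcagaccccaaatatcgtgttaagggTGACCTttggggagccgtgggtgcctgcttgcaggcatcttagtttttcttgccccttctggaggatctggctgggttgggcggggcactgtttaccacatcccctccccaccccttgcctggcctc

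The half-site AGGTCA, which many nuclear receptors bind, was found before 4 of the 7 members (Il17a, Il17f, Il23r and Il21r, with a pair of matches before Il23r), and in 14.0% of all 32851 RefSeq promoter windows of that length. TGANTCA was found before Il17a alone, at its far end, against 6.75% of all windows. TTCNNNGAA was found before none of the 7, against 7.02%. The TATA box letters TATAAA, left in lower case, were found before 3 of the 7 members, at 31 bases from the start for Il17a, 29 for Il17f and 170 for Il22, and 12.4% of all windows held them. The half-site stood before members called lower and before Il21r, which was not called. The start of Il17f used by RefSeq lies downstream of the start of the GENCODE gene, so its window lies inside the gene span given above. Of the bases in that window, 26 lie in an exon of another annotated Il17f transcript. The Il22 window ends past the GENCODE start of that gene, and 22 of its bases lie in an Il22 exon, so the distance of 170 bases counts from the RefSeq start.

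Both interleukin 17 genes were lower in the KO libraries, which differed widely among themselves. Il17a, the founding cytokine of the family, held 347, 306 and 222 CPM in the control libraries and 161, 40.3 and 77.4 CPM in the KO libraries. KO replicate 1 stood well above the other 2 KO libraries, and the groups did not overlap. The mean fell from 292 ± 63.9 CPM to 92.8 ± 61.6 CPM (mean and SD of 3; edgeR log2 fold change −1.65 ± 0.424 SE, adjusted p = 0.0125), which leaves 31.8% of the control mean. Bulk RNA cannot tell fewer cells making a transcript from less of it per cell. Il17f, whose protein pairs with IL-17A or with itself, held 1218, 1538 and 938 CPM in the control libraries and 817, 329 and 374 CPM in the KO libraries. Again KO replicate 1 was the highest KO library, and it lay below control replicate 3, the lowest control. The mean fell from 1231 ± 301 CPM to 507 ± 269.6 CPM (mean and SD of 3; edgeR log2 fold change −1.28 ± 0.340 SE, adjusted p = 0.0144). Without KO replicate 1 the log2 fold changes were −2.32 for Il17a and −1.81 for Il17f, and without KO replicate 2 −1.29 and −1.04. The call of Il17a held in each of the 6 leave-one-out fits, and that of Il17f was lost without control replicate 2, KO replicate 2 or KO replicate 3 (edgeR adjusted p = 0.0540, 0.0569 and 0.0510). KO replicate 1 was also the KO library with the most Rtf1, 45.3 CPM against 30.4 and 26.2. It was the highest KO library for Il21, Il10 and Il24 too, but not for Il22, Il23r, Il1r1 or Il21r. Whether the level of Rtf1 has a part in these differences between KO libraries was not tested.

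**Figure D1:**
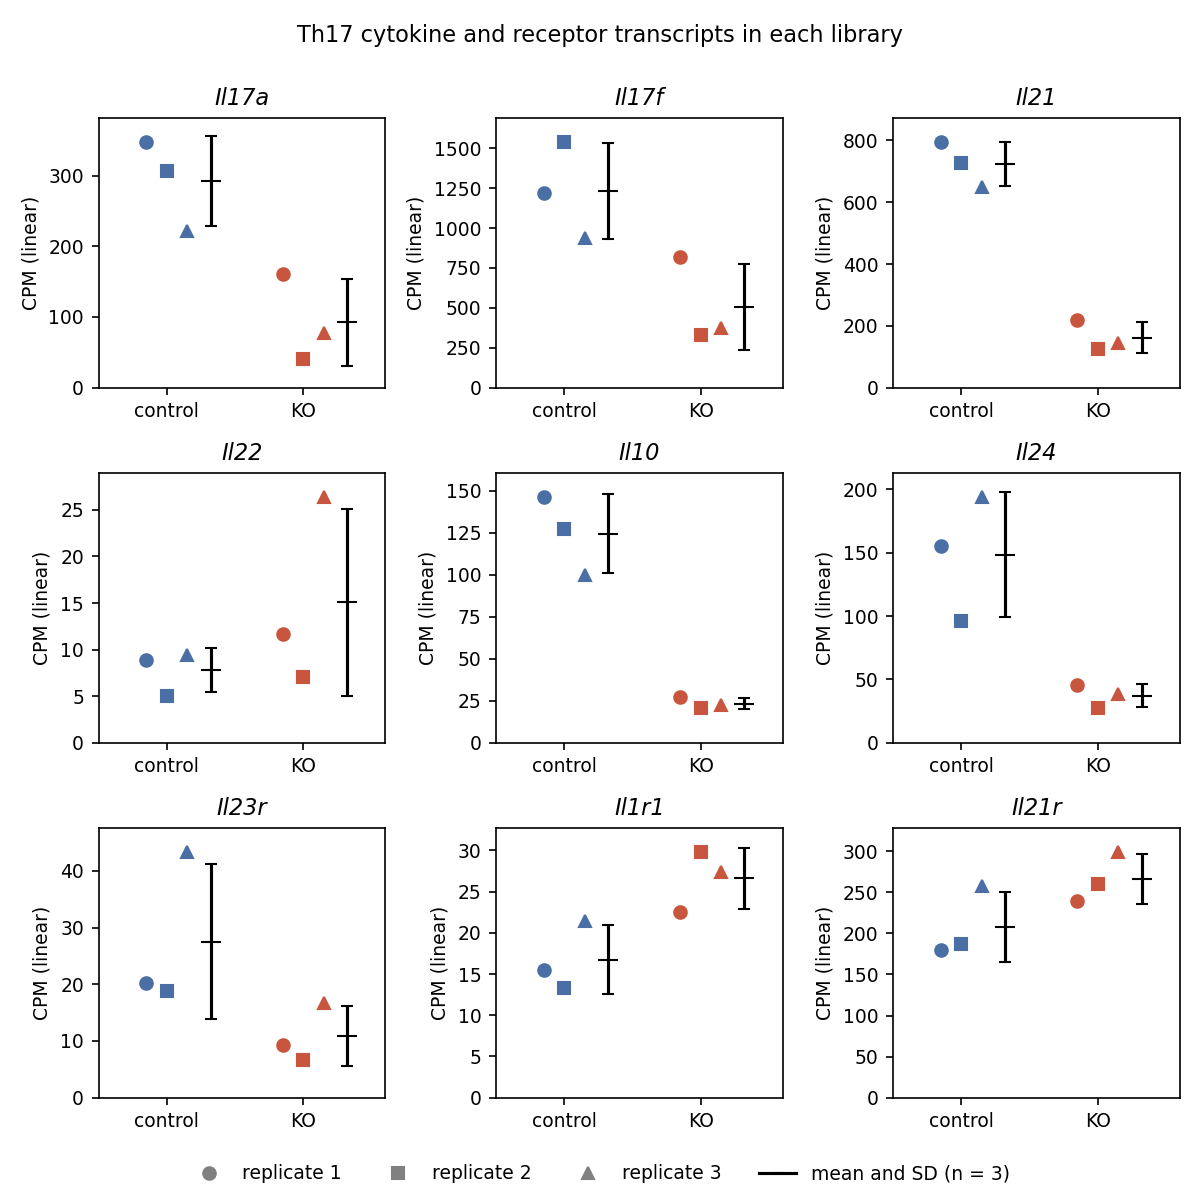
CPM of the 9 genes in each library (linear axis from 0), with control in blue and KO in red, symbols for the replicate numbers and the mean with its SD beside them. The 3 KO libraries lie below all control libraries for Il17a, Il17f, Il21, Il10, Il24 and Il23r, above them for Il1r1, and overlap them for Il22 and Il21r.

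Il21 fell, and the difference in its receptor Il21r was not called. Il21, which Th17 cells make and respond to, held 795, 727 and 650.1 CPM in the control libraries and 219, 124 and 143 CPM in the KO libraries. The control libraries were close to one another and the KO libraries lay far below them. The mean fell from 724 ± 72.3 CPM to 162 ± 50.1 CPM (mean and SD of 3; edgeR log2 fold change −2.16 ± 0.215 SE, adjusted p = 2.4e-04), and no leave-one-out fit lost the call. Exons of the antisense gene Gm12534 cover 8.92% of the exonic bases of Il21, and the table lists that gene at 0 in every library. Il21r held 179.8, 187 and 257 CPM in the control libraries and 239, 259.8 and 299 CPM in the KO libraries. Control replicate 3 reached into the KO range, and the other 2 control libraries lay below all KO libraries. The change was not called (edgeR log2 fold change 0.35 ± 0.163 SE, adjusted p = 0.105). With the replicate number as a block, the numbers being read as pairs of libraries, it was called higher (0.37, edgeR adjusted p = 0.0160), as it was without control replicate 3 (0.48, adjusted p = 0.0214) and with scaling by library size alone (adjusted p = 0.0479). Leaving out control replicate 1 or 2 gave 0.20 and 0.27.

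Il22, the barrier cytokine of the group, was low and did not follow the other cytokines downward. It held 8.88, 5.06 and 9.43 CPM in the control libraries and 11.7, 7.10 and 26.4 CPM in the KO libraries, from 146 to 519 counts per library. KO replicate 3 stood above all other libraries, and KO replicate 2 lay within the control range. The difference was not called (edgeR log2 fold change 0.95 ± 0.450 SE, adjusted p = 0.114), and it shrank to 0.27 without KO replicate 3 and to 0.45 with the libraries numbered 1 and 2 alone. It was called higher with the replicate block (0.80, edgeR adjusted p = 0.0164), by DESeq2 (adjusted p = 0.0452) and without KO replicate 2 (1.30, adjusted p = 0.0390). Il22 is uncertain, since 41.0% of its 50-base stretches also occur in its near copy Iltifb, for which the table lists 2, 6 and 14 counts in control and 14, 10 and 22 in KO.

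Il10 and Il24, 2 genes of the IL-10 family, were both lower in KO. Il10, which restrains inflammation, held 146, 127 and 99.7 CPM in the control libraries and 27.0, 20.5 and 22.3 CPM in the KO libraries. The KO libraries were close to one another, all below the lowest control. Its mean fell from 124 ± 23.4 CPM to 23.2 ± 3.35 CPM (mean and SD of 3; edgeR log2 fold change −2.42 ± 0.174 SE, adjusted p = 7.1e-05), a 5.35-fold difference, with log2 fold changes from −2.61 to −2.33 over the 6 leave-one-out fits. It had the most negative fold change of the 9 genes. Il24 held 155, 96.3 and 194 CPM in the control libraries and 45.2, 27.3 and 38.3 CPM in the KO libraries. Control replicate 2 was the lowest control and still above every KO library. The mean fell from 149 ± 49.2 CPM to 36.9 ± 9.04 CPM (mean and SD of 3; edgeR log2 fold change −2.01 ± 0.270 SE, adjusted p = 7.5e-04), and the call held in each of those fits. The family members Il19 and Il20, which lie between them, had at most 15 and 1 counts in any library and were not tested.

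The receptors for the cytokines that sustain Th17 cells moved in opposite directions. Il23r, the chain that gives the IL-23 receptor its specificity, held 20.3, 18.9 and 43.3 CPM in the control libraries and 9.26, 6.68 and 16.8 CPM in the KO libraries. Replicate 3 was the highest library of each group, and KO replicate 3 still lay below control replicate 2, the lowest control. The mean fell from 27.5 ± 13.7 CPM to 10.9 ± 5.25 CPM (mean and SD of 3; edgeR log2 fold change −1.35 ± 0.402 SE, adjusted p = 0.0231). The call was lost without KO replicate 1 (−1.25, edgeR adjusted p = 0.0655) or KO replicate 2 (−1.08, adjusted p = 0.0845), and the fold change was −0.92 without control replicate 3. With the libraries numbered 1 and 2 alone, which lack the Y-linked counts, it was −1.30 (adjusted p = 7.3e-04), and replicate 3 has 1 library per group and no test. Il1r1, the signalling receptor for IL-1, was the 1 member called higher. It held 15.4, 13.4 and 21.4 CPM in the control libraries and 22.6, 29.8 and 27.4 CPM in the KO libraries, and every KO library was above every control library, by little for KO replicate 1 over control replicate 3. The mean rose from 16.7 ± 4.18 CPM to 26.6 ± 3.67 CPM (mean and SD of 3; edgeR log2 fold change 0.67 ± 0.200 SE, adjusted p = 0.0238). That call was lost in 4 leave-one-out fits, those without control replicate 1, control replicate 2, KO replicate 2 or KO replicate 3 (fold changes 0.56, 0.51, 0.58 and 0.65, adjusted p = 0.0956, 0.0836, 0.0956 and 0.0631).

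Of the 9 members, 6 were called lower, 1 higher and 2 not called, with a median log2 fold change of −1.35. Over all tested genes the median was 0.013, 22.9% were called lower and 23.2% higher, and together 46.1% were called. The groups did not overlap for 7 members, 6 of them with KO below, where 57.9% of all tested genes had groups that did not overlap, 28.0% with KO below and 29.9% with KO above. With the replicate block the members called higher were 3 (Il1r1, Il22 and Il21r) and those called lower were still 6, beside 53.5% of all genes called. Without control replicate 1, control replicate 2 or KO replicate 3 no member was called higher by edgeR, and without KO replicate 2 the members called lower were 4.

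**Figure D2:**
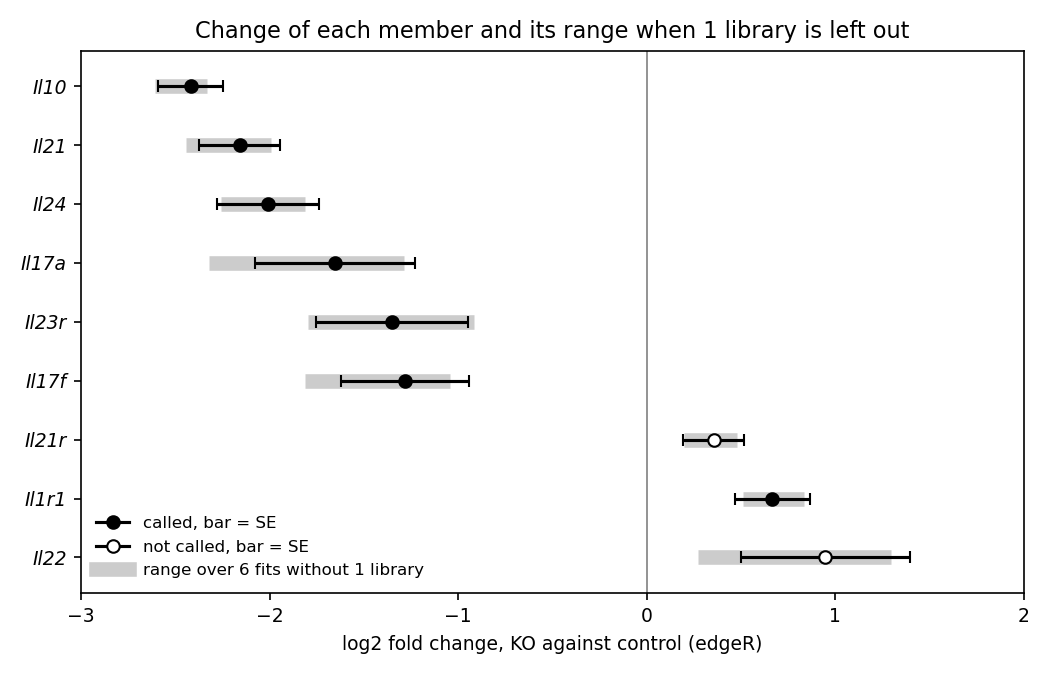
edgeR log2 fold change of each member with its SE (black; filled where called, open where not), over a grey band for the range of the 6 leave-one-out fits. The bands of Il10, Il21, Il24, Il17a, Il23r and Il17f stay below 0 and those of Il21r, Il1r1 and Il22 above it, and Il17a, from −2.32 to −1.29, and Il22, from 0.27 to 1.30, have the widest bands.

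Levels of different genes were compared per length, as CPM per kilobase of the union of annotated exons. In control, Il17f was the most abundant member at 609 ± 149 (mean ± SD, n = 3), followed by Il17a at 249 ± 54.6, Il21 at 138 ± 13.7, Il24 at 107 ± 35.5 and Il10 at 95.0 ± 17.8. The ranges of Il21 and Il24, of Il24 and Il10 and of Il10 and Il21r (62.6 ± 12.9) overlapped, and so did those of Il23r (11.1 ± 5.51) and Il22 (7.02 ± 2.15), while Il1r1 was lowest at 2.63 ± 0.657. In KO, the order of the CPM per kilobase was Il17f (251 ± 133), Il21r (80.0 ± 9.14), Il17a (79.2 ± 52.6), Il21 (30.8 ± 9.52), Il24 (26.6 ± 6.52), Il10 (17.7 ± 2.56), Il22 (13.6 ± 9.07), Il23r (4.38 ± 2.11) and Il1r1 (4.18 ± 0.577). There the ranges of all neighbours in that order overlapped except those of Il17f and Il21r. The receptor transcript Il21r thus stood below Il21 per kilobase in every control library and above it in every KO library. The order depends on the length used: with the longest transcript in place of the exon union, Il21 in control was at 236 ± 23.5 CPM per kilobase, close to Il17a at 249, and Il17f at 1045 ± 255.

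Ratios between members were taken within each library, which removes library size and scaling, for all 36 pairs. In 21 of the 36 pairs (58.3%) the groups did not overlap, against 56.7% of all pairs of tested genes. Each of these had p = 0.1 in the exact permutation test over the 6 libraries (two-sided), the smallest p this design allows, and an adjusted p of 0.171 over the 36 pairs, so no ratio passes 0.05. The ratio of the neighbours Il17a and Il17f overlapped between the groups. Per kilobase, Il17a was 0.492, 0.344 and 0.409 of Il17f in the control libraries and 0.339, 0.212 and 0.357 in the KO libraries. KO replicate 2 was the lowest library and control replicate 1 the highest. The log2 ratio was −1.28 ± 0.259 in the controls and −1.76 ± 0.415 in KO cells (SD of 3), a difference of −0.48 on the log2 scale (exact permutation test, two-sided, p = 0.2, adjusted p = 0.313). It was lower in KO in each of the 3 pairs of equal replicate number (−0.54, −0.70 and −0.20; exact sign-flip test, two-sided, p = 0.25, the smallest possible).

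The ratio of Il21 to Il10 per kilobase was 1.35, 1.42 and 1.62 in control and 2.02, 1.51 and 1.60 in KO, with overlapping groups and a difference of 0.21 on the log2 scale (exact permutation test, two-sided, p = 0.3, adjusted p = 0.415). Il10 to Il24 was 0.995, 1.40 and 0.544 in control and 0.631, 0.794 and 0.616 in KO, also overlapping (−0.43 on the log2 scale, exact p = 0.4, adjusted p = 0.497). These p-values do not show that the ratios are equal. The ratios of Il17f to Il21 and to Il10 did not overlap between the groups, as was so for 56.7% of all pairs of tested genes. Il17f was 3.99, 5.50 and 3.75 times Il21 in control and 9.71, 6.88 and 6.80 times in KO (0.82 on the log2 scale, exact p = 0.1, adjusted p = 0.171). It was 5.40, 7.83 and 6.09 times Il10 in control and 19.6, 10.4 and 10.9 times in KO (1.04 on the log2 scale, exact p = 0.1, adjusted p = 0.171). In these libraries Il17f kept a larger part of its control level than Il21 and Il10.

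The ratios with the largest differences joined a lower cytokine or receptor with Il22, Il1r1 or Il21r. Il21 was 2.79, 2.46 and 1.60 times its receptor Il21r per kilobase in control and 0.578, 0.302 and 0.303 times in KO. All KO libraries had less ligand than receptor transcript, and the difference was −2.57 on the log2 scale (5.92-fold; exact permutation test, two-sided, p = 0.1, adjusted p = 0.171). Il23r was 3.36, 3.62 and 5.17 times Il1r1 in control and 1.05, 0.574 and 1.57 times in KO. Per kilobase of the exon union, Il23r thus stood above Il1r1 in every control library and in KO replicates 1 and 3. In KO replicate 2 Il23r stood below Il1r1. The difference between the groups was −2.02 on the log2 scale (exact p = 0.1, adjusted p = 0.171). With the longest transcript as length, the KO means were 4.38 CPM per kilobase for Il23r and 4.57 for Il1r1, so their order in KO depends on the length. In CPM not divided by length, Il23r was above Il1r1 in every control library and below it in every KO library. Il22 was 0.0270, 0.0175 and 0.0449 of Il17a in control and 0.0769, 0.186 and 0.360 in KO (2.64 on the log2 scale, exact p = 0.1, adjusted p = 0.171). The largest difference of the 36 was that of Il22 to Il10, 3.20 on the log2 scale, from 0.0719, 0.0470 and 0.112 in control to 0.512, 0.410 and 1.40 in KO (exact p = 0.1, adjusted p = 0.171). Of these 2 genes Il10 had an edgeR log2 fold change of −2.42, and Il22, at 0.95, was not called. Ratios with Il22 also carry its shared sequence with Iltifb, 41.0% of its 50-base stretches. Il1r1 to Il21r moved least among the 21 pairs without overlap (0.32 on the log2 scale, exact p = 0.1, adjusted p = 0.171).

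**Figure D3:**
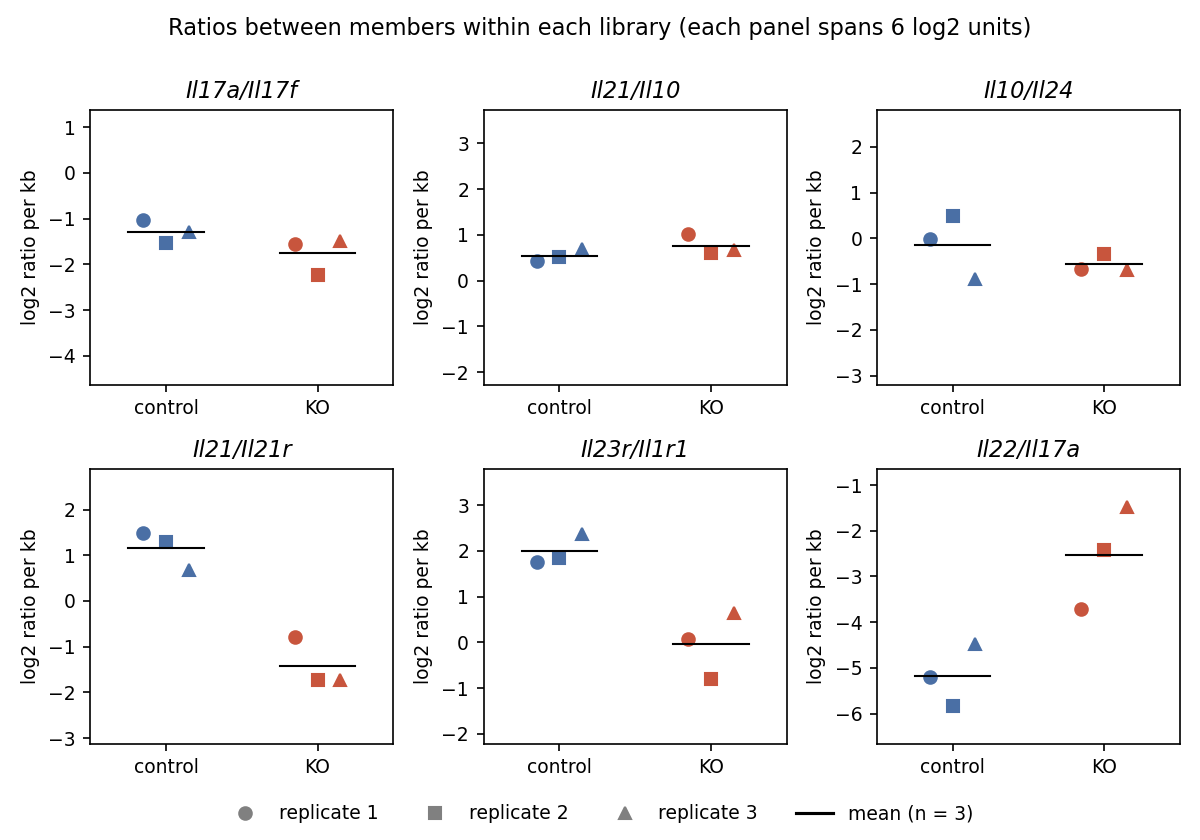
log2 ratio of counts per kilobase between 2 members in each library (control blue, KO red, symbols for replicate numbers, lines for the means), each panel spanning 6 log2 units. Il17a/Il17f, Il21/Il10 and Il10/Il24 overlap between the groups, whereas Il21/Il21r and Il23r/Il1r1 lie lower and Il22/Il17a higher in all 3 KO libraries.

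As shares of the summed counts per kilobase of the 6 cytokines, Il17f took 47.0%, 57.1% and 46.3% in the control libraries and 62.5%, 62.0% and 53.4% in the KO libraries. It was the most abundant cytokine in every library, and the groups overlapped (exact permutation test, two-sided, p = 0.2; 6 shares compared, none below p = 0.1). Il17a took 23.1%, 19.6% and 18.9% in control and 21.2%, 13.1% and 19.0% in KO. Il21 took 11.8%, 10.4% and 12.3% in control and 6.44%, 9.01% and 7.85% in KO, without overlap. Il10 took 8.70%, 7.30% and 7.60% and 3.18%, 5.95% and 4.91%, lower in KO without overlap, and Il22 0.624%, 0.342% and 0.848% and 1.63%, 2.44% and 6.85%, higher in KO without overlap (exact p = 0.1 each, the smallest possible). Il24 took 8.75%, 5.22% and 14.0% and 5.04%, 7.50% and 7.97%, with overlap. The shares depend on the length used. With the longest transcript Il17a took 16.1%, 13.2% and 13.1% in control and 14.1%, 8.63% and 13.1% in KO. Il21 then took 14.1%, 11.9% and 14.6% and 7.34%, 10.1% and 9.25%, above Il17a in control replicate 3 and KO replicate 2. Shares sum to a whole, so a smaller share of one gene raises the others. Per kilobase, the make-up thus had less Il21 and Il10 and more Il22 in KO, on levels that were lower for every one of these cytokines but Il22.

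**Figure D4:**
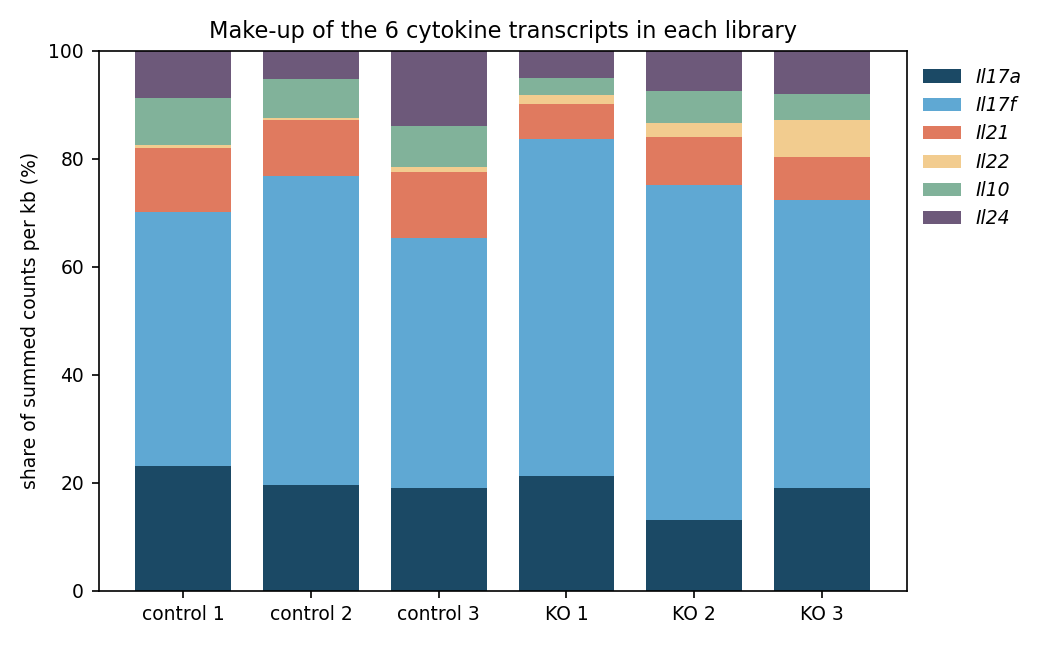
Share of each of the 6 cytokines in their summed counts per kilobase of the exon union (%), 1 stacked bar per library. Il17f fills 46.3% to 62.5% of every bar. The Il22 segment is at most 0.848% in control and 1.63%, 2.44% and 6.85% in KO replicates 1, 2 and 3.

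The genes most like a member were ranked by Pearson correlation of log2 CPM over the 6 libraries among 9432 other tested genes whose mean reached 5 CPM. With 2 separate groups of 3 libraries such values are high for many genes and serve only to rank. For Il17a they were Grk5 (r = 0.996, log2 fold change −0.48), Mybl1 (r = 0.993, log2 fold change −0.63) and Tram2 (r = 0.991, log2 fold change −0.67). For Il17f they were Rcan1 (r = 0.999, log2 fold change −0.66), Tln2 (r = 0.995, log2 fold change −1.54) and Naa25 (r = 0.994, log2 fold change −0.57), for Il21 Ccdc85c (r = 0.999, log2 fold change −1.91), Csnk2a2 (r = 0.999, log2 fold change −0.16) and Tmem206 (r = 0.998, log2 fold change −1.09), and for Il10 Alkbh5 (r = 0.999, log2 fold change −0.42), Pi4k2b (r = 0.999, log2 fold change −0.95) and Snhg6 (r = 0.997, log2 fold change −0.77). For Il1r1 they were Fam160b1 (r = 0.997, log2 fold change 0.37), Akap8l (r = 0.996, log2 fold change 0.53) and Stx5a (r = 0.996, log2 fold change 0.65). The first gene was Fry (r = 0.999, log2 fold change −1.25) for Il24, Rab11fip1 (r = 0.993, log2 fold change 0.34) for Il22, Podnl1 (r = 0.995, log2 fold change −1.05) for Il23r and Nrip1 (r = 0.996, log2 fold change 0.40) for Il21r.

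Among 26 further cytokine receptor chains, 23 were tested, 9 were called higher and 4 lower (against 23.2% and 22.9% of all tested genes), with a median log2 fold change of 0.13. Il17ra, the chain through which IL-17A and IL-17F signal, held 59.3, 73.7 and 86.9 CPM in the control libraries and 243, 289.5 and 324 CPM in the KO libraries and rose from 73.3 ± 13.8 CPM to 285 ± 40.5 CPM (mean and SD of 3; edgeR log2 fold change 1.96 ± 0.171 SE, adjusted p = 1.4e-04). The KO libraries all lay above the controls. Il17rc, the other chain of that receptor, was near the limit of detection, with 0.486, 0.537 and 0.499 CPM in control and 0.0759, 0.160 and 0.407 CPM in KO. It was not called (edgeR log2 fold change −1.33, adjusted p = 0.0851) except without KO replicate 3 and with the libraries numbered 1 and 2 alone, where it was called lower. Both chains of the IL-10 receptor rose as Il10 fell, Il10ra from 23.2 ± 13.8 to 79.6 ± 27.5 CPM (edgeR log2 fold change 1.77, adjusted p = 0.00665) and Il10rb from 14.4 ± 1.01 to 41.2 ± 7.75 CPM (edgeR log2 fold change 1.52, adjusted p = 3.6e-04), although 13.9% of the 50-base stretches of Il10rb occur in transcripts of another gene. The common gamma chain Il2rg, partner of IL-21R, rose as well (edgeR 0.67, adjusted p = 0.00367), and 27.5% of its stretches are shared in that way. Il6st, the gp130 chain of the IL-6 receptor, rose from 75.4 ± 7.38 CPM to 203 ± 2.98 CPM (SD, n = 3; edgeR 1.43, adjusted p = 1.0e-04), while Il6ra held 87.7 ± 24.3 and 77.1 ± 3.56 CPM and was not called (−0.19, adjusted p = 0.414). The partners of the IL-23 and IL-1 receptors were not called: Il12rb1 held 172 ± 7.03 and 166 ± 28.5 CPM (edgeR −0.053, adjusted p = 0.776) and Il1rap 9.83 ± 1.29 and 9.37 ± 1.44 CPM (−0.065, adjusted p = 0.803). Il2ra and Il7r fell (edgeR −1.52, adjusted p = 2.6e-04, and −1.17, adjusted p = 0.00307), and so did Il17re (−1.76, adjusted p = 0.00124). Il1r2, a decoy for IL-1, fell (edgeR −2.42, adjusted p = 0.0329), from 2.19, 1.82 and 13.6 CPM in control to 0.759, 0.855 and 1.78 CPM in KO. Control replicate 3 was far above the other libraries, and the difference was −0.90 and not called without it. The call of Il1r2 was lost without KO replicate 1 or 2 as well.

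Of 29 other cytokine genes, 19 were tested, 7 were called lower and 1 higher (against 22.9% and 23.2% of all tested genes), with a median log2 fold change of −0.72. Lif, a cytokine of the IL-6 family, held 829.8, 726 and 832 CPM in the control libraries and 194, 136 and 156 CPM in the KO libraries and fell from 796 ± 60.3 CPM to 162 ± 29.8 CPM (mean and SD of 3; edgeR log2 fold change −2.30 ± 0.161 SE, adjusted p = 6.9e-05). Il4 and Il13, cytokines of Th2 cells, were low and lower in KO, Il4 from 7.96 ± 3.54 to 1.21 ± 0.432 CPM (edgeR −2.70, adjusted p = 0.00166) and Il13 from 1.52 ± 0.913 to 0.333 ± 0.105 CPM (−2.19, adjusted p = 0.0196, lost without control replicate 1 or KO replicate 2). Tgfb3 fell from 13.3 ± 11.7 CPM to 2.73 ± 1.01 CPM (SD, n = 3; edgeR −2.27, adjusted p = 0.0121), with 6.57, 6.44 and 26.8 CPM in the control libraries and a fold change of −1.29 without control replicate 3. Ebi3 (edgeR −0.72, adjusted p = 0.0373), Csf2 (−1.46, adjusted p = 0.0370) and Lta (−0.83, adjusted p = 0.0490) were called lower. Ebi3 lost the call without control replicate 2 or KO replicate 1 or 2, Csf2 without control replicate 1 or 3 or KO replicate 1 or 2, and Lta without control replicate 1 or 2 or KO replicate 2 or 3. Il6 was the 1 gene called higher, from 2, 1 and 3 counts in control, too few for a fold, and 21, 31 and 23 in KO (edgeR adjusted p = 0.00125). Il9, Il1rn and Il2, not called, varied widely in control, where replicate 3 was lowest, Il9 with 449.6, 344 and 54.8 CPM against 197, 42.2 and 69.9 CPM in KO (edgeR log2 fold change −1.46, adjusted p = 0.133). Il9 and Il1rn were called lower without control replicate 3 or without KO replicate 1, Il2 without control replicate 3, and Il1rn with the replicate block (adjusted p = 3.0e-04). Il23a, Ifng, Tnf, Tgfb1 and Ccl20 were not called. Tnf was called higher without control replicate 2, with every gene of any count, with scaling by library size alone, and with the replicate block (0.48, adjusted p = 0.0337). The count of cytokines called lower was 4 without control replicate 1, 3 without KO replicate 2 and 12 with every gene of any count tested.

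All 18 signal transducers of these receptors on the list were tested, 7 were called higher and 2 lower (against 23.2% and 22.9% of all tested genes, so that the share called in either direction is near their 46.1%), with a median of 0.23. Socs3, a feedback inhibitor of STAT3 signalling, rose from 85.7 ± 16.5 CPM to 215 ± 16.6 CPM (mean and SD of 3; edgeR log2 fold change 1.33 ± 0.151 SE, adjusted p = 3.9e-04), while Stat3, which carries the IL-6, IL-21 and IL-23 signals, held 567 ± 10.4 and 628 ± 43.6 CPM and was not called (edgeR 0.15, adjusted p = 0.316). Of the IL-1 pathway, the adaptor Myd88 rose from 41.0 ± 8.12 CPM to 96.3 ± 9.76 CPM (SD, n = 3; edgeR 1.23, adjusted p = 6.9e-04) and the kinase Irak4 from 19.4 ± 1.92 CPM to 37.3 ± 0.913 CPM (0.94, adjusted p = 8.2e-04), and Nfkbiz, an inducible cofactor of NF-κB, rose too (0.74, adjusted p = 0.0104). Irak1bp1, which encodes a binding protein of IRAK1, fell, with 7.66, 8.36 and 7.51 CPM in control and 3.99, 2.67 and 2.34 CPM in KO (edgeR −1.38, adjusted p = 0.00318), a call kept in each leave-one-out fit. Irak1 and Traf6 were not called (edgeR 0.23, adjusted p = 0.143, and −0.047, adjusted p = 0.755). Jak1, a kinase shared by many of these receptors, rose (edgeR 0.65, adjusted p = 0.00228). Jak2, a kinase of the IL-23 receptor, fell (edgeR −0.44, adjusted p = 0.0168), but was not called without control replicate 1 or KO replicate 2 or 3. The kinase Tyk2 was not called (edgeR 0.17, adjusted p = 0.274). Stat5a rose (edgeR 0.50, adjusted p = 0.0213), but was not called without control replicate 2 or KO replicate 3. With the replicate block Jak3 was called higher (adjusted p = 0.0160) and Stat4 and Stat5b lower (adjusted p = 0.00494 and 0.0221), so that 4 transducers were lower. Without KO replicate 2, 1 was.

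Genes beside the members on the chromosome were compared from a list of 28, of which 27 were in the table and 21 tested. Of these 8 were called higher and 4 lower, against 23.2% and 22.9% of all tested genes (median 0.29), 2 lower without KO replicate 1, and 5 higher and 1 lower without KO replicate 2. Some also stand in the lists above. Around Il21, 3 of the 4 tested neighbours were called higher: Cetn4, 75.1 kb away, rose from 21.9 ± 3.38 CPM to 75.9 ± 15.1 CPM (mean and SD of 3; edgeR log2 fold change 1.79 ± 0.178 SE, adjusted p = 2.4e-04), and Bbs12, 79.9 kb away, rose from 15.8 ± 1.98 CPM to 32.2 ± 2.72 CPM (edgeR log2 fold change 1.03, adjusted p = 9.9e-04). Nudt6, 172 kb away, rose too (edgeR log2 fold change 0.88, adjusted p = 0.0290), with 43.1% of its stretches shared with Fgf2, and was called without control replicate 3 or KO replicate 1 but in no other leave-one-out fit. Il2, 96.8 kb away, was not called (edgeR log2 fold change −1.33, adjusted p = 0.128). Beside Il17f, Mcm3, a subunit of the replication helicase 12.4 kb away, fell from 409.6 ± 101 CPM to 175 ± 47.0 CPM (mean and SD of 3; edgeR log2 fold change −1.23 ± 0.231 SE, adjusted p = 0.00318). Paqr8, farther out, was not called (edgeR log2 fold change 0.29, adjusted p = 0.0892). At the Il24 and Il10 locus, Fcmr, 1.28 kb from Il24, was not called (edgeR log2 fold change 0.35, adjusted p = 0.269) and Mapkapk2, 28.7 kb from Il10, fell by less (edgeR log2 fold change −0.48, adjusted p = 0.0241) and was not called without KO replicate 1 or 2. Dyrk3, 102 kb from Il10, rose (edgeR log2 fold change 0.54, adjusted p = 0.0247) and was called without control replicate 2 or KO replicate 3 but in no other leave-one-out fit.

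At the Il1r1 locus, a cluster of IL-1 receptor family genes, 5 of the 6 measured genes, Il1r1 included, were called higher and 1 lower, where 23.2% of all tested genes were called higher. For Il1r1 and Il1rl1 the call was lost in 4 and 5 leave-one-out fits. Il1rl2, the receptor for IL-36 and 7.35 kb from Il1r1, held 8.82, 7.82 and 9.43 CPM in the control libraries and 37.3, 45.0 and 58.1 CPM in the KO libraries and rose from 8.69 ± 0.812 CPM to 46.8 ± 10.5 CPM (mean and SD of 3; edgeR log2 fold change 2.43 ± 0.189 SE, adjusted p = 9.8e-05). The 2 chains of the IL-18 receptor rose most, Il18r1 from 4.75 ± 0.916 CPM to 33.8 ± 5.40 CPM (mean and SD of 3; edgeR log2 fold change 2.84 ± 0.202 SE, adjusted p = 7.0e-05) and Il18rap from 2.41 ± 0.894 CPM to 44.8 ± 9.38 CPM (edgeR log2 fold change 4.27 ± 0.295 SE, adjusted p = 6.8e-05). All KO libraries lay above all control libraries for these 3 genes. Il1rl1, the IL-33 receptor, was low, with 0.304, 0.165 and 0.0475 CPM in control and 0.531, 0.507 and 0.559 CPM in KO (edgeR 1.80, adjusted p = 0.0344), and it was called without control replicate 1 but in no other leave-one-out fit. Il1r2, 99.8 kb on the other side of Il1r1, was the gene called lower. Beside Il23r, Il12rb2 was not called (edgeR −0.87, adjusted p = 0.132), but was called lower with the replicate block (−0.74, adjusted p = 0.00201). It held 117, 124 and 351 CPM in control and 88.7, 77.6 and 159 CPM in KO, and without control replicate 3 the fold change was −0.21. Of its stretches, 38.0% occur in other genes, mainly Serbp1, which fell (edgeR log2 fold change −0.52, adjusted p = 0.00833, not called without KO replicate 2). The neighbours of Il21r (Gtf3c1, Il4ra and Nsmce1) and of Il22 (Mdm1 and Ifng) were not called.

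**Figure D5:**
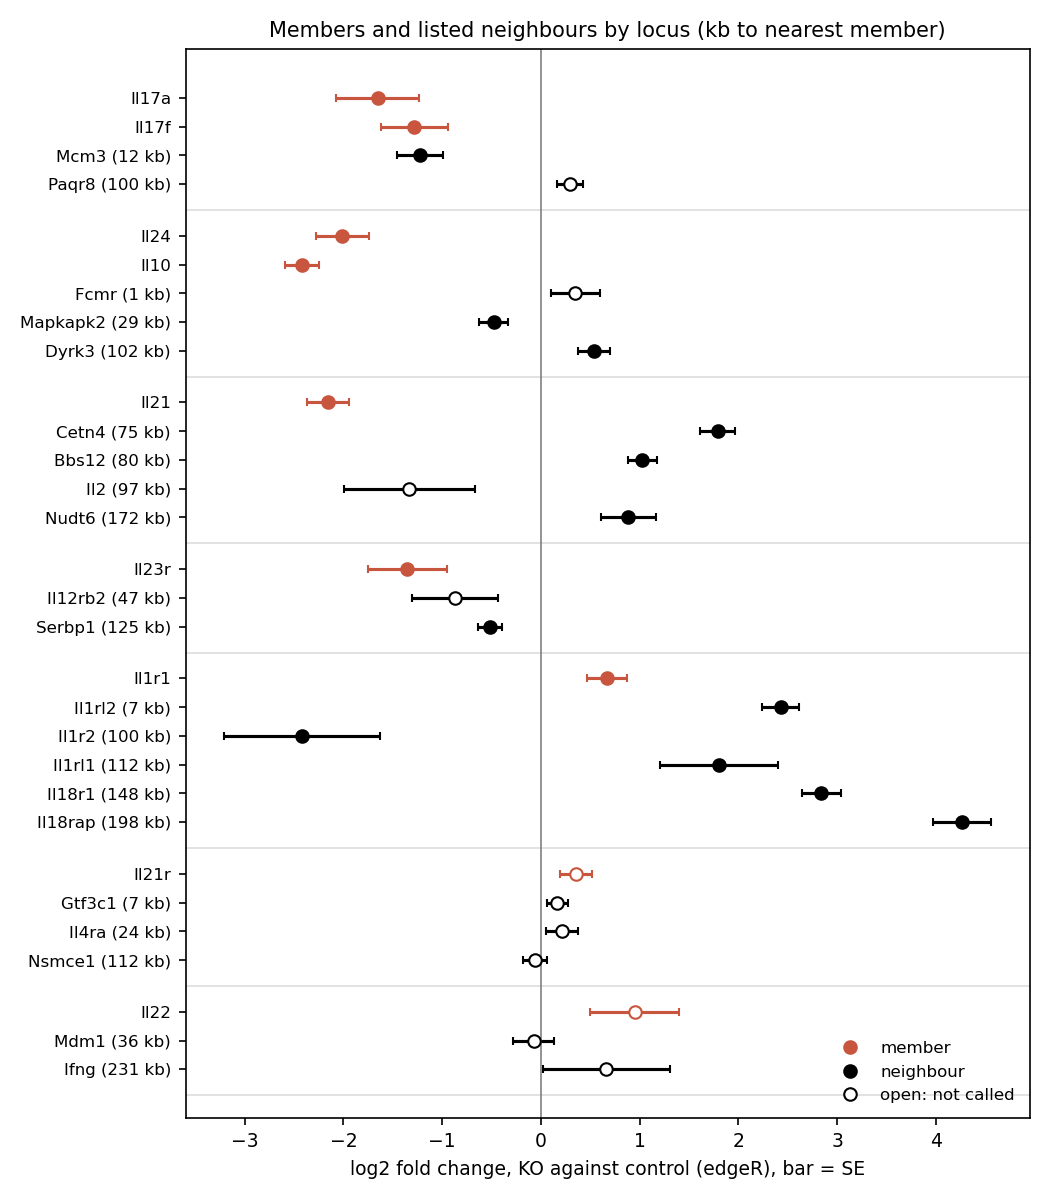
edgeR log2 fold change with its SE for the members (red) and their tested listed neighbours (black), grouped by locus, with the distance to the nearest member in kb. Filled points are called. Il21 lies at −2.16 with Cetn4 and Bbs12 above 1, and the Il1r1 cluster lies above 0 except Il1r2 at −2.42.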

How the data were processed

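RNA from 3 control and 3 KO Th17 libraries was compared, with group and replicate number from the sample titles and each column matched by the sample description. The authors deposited raw counts as whole numbers, listed by gene symbol, with no sign of normalization in the values. The submitters' processing notes name STAR, featureCounts and DESeq2 with build mm10. Versions, annotation and strand setting are not given in the sources used here. The members, lists, ratios and tests were chosen with earlier results of these data known. Per-sample columns without a sample numbered 0.

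From the deposited counts, edgeR 4.0.16 in R 4.3.3 (glmQLFit and glmQLFTest, TMM factors, filterByExpr by group, no covariate) tested 14268 genes holding 99.9% of counts, with Benjamini-Hochberg adjustment. The biological coefficient of variation was 0.212. The standard error is the absolute log2 fold change over the square root of F. The fit was tested on simulated counts. Reads carry no stated molecular identifiers, so counting error is only part of the uncertainty.

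Ratios used counts with 0.5 added, divided by the exon union in GENCODE M21, and exact permutation tests (two-sided). A 50-base stretch was called shared where it, or its reverse complement, occurs in a transcript of another gene. Named genes were Rtf1, the members, the fixed lists and the 3 genes most like each member. Values of some list members are not reported here. Replicate numbers were taken as pairs, since deviations from the group means of log2 CPM (prior count 2) correlated across genes at 0.27, 0.13 and 0.38 for equal numbers, although control replicate 2 correlated at 0.204 with KO replicate 1. No label gives the meaning of these numbers. The correlations come from the same values that the block fits test, so calls made only with the block have no separate support. Alternatives were DESeq2 1.42.0, other scaling factors, 2 other filters (any count, mean count of at least 10), the replicate block, each library left out, the libraries numbered 1 and 2 alone, and for ratios 2 counts added or the longest transcript as length.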

Additional observations from a re-analysis of the deposited data

How the results depend on the processing

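Counts of 16489813 to 51271226 per library and 3 libraries per group limit what can be called. No member changed direction under any of the 14 alternatives. Il10, Il21, Il24 and Il17a stayed called lower in all of them. Members called higher, 1 in the comparison as reported, were 2 with library size as the only scaling, 2 by DESeq2, 3 with the replicate block, 2 with the libraries numbered 1 and 2 alone, and 0 to 2 when 1 library was left out. Other cytokines called higher, 1 as reported, were 2 with library size as the only scaling, 2 with the replicate block, 2 with every gene of any count, and 1 to 2 with 1 library left out. Those called lower were 12 with every gene of any count and 3 to 10 with 1 library left out. Signal transducers called lower were 4 by DESeq2, 4 with the replicate block, and 1 to 3 with 1 library left out. Neighbours called lower were 1 to 4, and higher 5 to 7, with 1 library left out. The replicate block changed no call of a member besides Il22 and Il21r. Of the 36 ratios, 21 did not overlap as reported, 21 to 27 with 1 library left out (60.9% to 68.5% of all gene pairs), 28 with the libraries numbered 1 and 2 alone (74.0% of all gene pairs), and in 25 the differences within equal replicate numbers had 1 sign, the count that goes with the replicate block (73.1% of all gene pairs). These shares over all gene pairs were added after the data were seen. Direction reversed in 5 of the 36 ratios, all with overlapping groups. With 1 library left out, Il17a/Il24 ranged from −0.28 to 0.46 (reversed at −0.28 and −0.22), Il17f/Il23r from −0.61 to 0.48 (reversed at 0.13, 0.35 and 0.48), Il21/Il24 from −0.51 to 0.073, Il22/Il1r1 from −0.38 to 0.62 (reversed at −0.034 and −0.38), and Il22/Il21r from −0.0020 to 0.84, in log2 units. With the libraries numbered 1 and 2 alone, Il17a/Il24 was −0.22, Il22/Il1r1 −0.41 and Il22/Il21r −0.0011. The cause was not tested. With library size as the only scaling the median of all tested genes was 0.10, against 0.013.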
